A study of Homo sapiens with 18 samples.

Results

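MYC, 5 members of its binding network and 34 ribosome biogenesis genes were followed in 2 human non-small cell lung cancer lines after knockdown of TAZ or YAP. The 40 genes were chosen by name, for their known roles, after the fall of MYC in these data had been seen, and the question they address is whether the fall of MYC with the TAZ siRNA in H1299 is accompanied by a fall of its known growth targets. All 40 were found among the 18978 genes listed for H1299 and the 20335 listed for A549, and all 40 passed the filter on low counts in both lines. They comprise MYC and its partners MAX, MXD1, MXD4, MXI1 and MNT, 6 nucleolar core genes, 8 genes of the small nucleolar ribonucleoproteins (snoRNPs), 5 small-subunit assembly genes, 12 large-subunit assembly genes and 3 subunits of RNA polymerase I.

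H1299, a lung carcinoma line that lacks p53, and A549, a lung adenocarcinoma line with intact p53, had been given 30 nM of an siRNA for 48 h and kept without serum for the last 18 h. The groups were siTAZ (a SMARTpool, or mixture of siRNAs, against TAZ, gene WWTR1), siYAP (a SMARTpool against YAP, gene YAP1) and siControl, and every siRNA had 3 poly(A) RNA-seq libraries in each line, 18 in 6 groups. Both media held 10% serum before starvation, RPMI-1640 for H1299 and DMEM for A549, and each line has a count table of its own, so the effects of line, medium and experiment cannot be told apart. Nothing in the labels says whether replicates came from separate cultures, and the spread behind each p-value may therefore be technical. Libraries held 16.8 to 20.8 M assigned reads in H1299 and 10.7 to 45 M in A549. Levels are CPM, the reads of a gene scaled to a common library size after TMM scaling, changes are on the log2 scale ± standard error, and a gene was called changed at an adjusted p below 0.05 in edgeR's quasi-likelihood test with Benjamini-Hochberg adjustment over all genes tested.

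MYC is a transcription factor that pairs with MAX and binds the E-box, the sequence CACGTG, at genes for growth and protein synthesis. MXD1, MXD4, MXI1 and MNT also pair with MAX and act as repressors at the same sites. Ribosome assembly begins in the nucleolus, where RNA polymerase I transcribes the ribosomal RNA precursor, snoRNPs modify it, and assembly factors fold and cut it into the small and large subunits; many of these factors are known MYC targets. YAP and TAZ are coactivators of the TEAD transcription factors, restrained by the Hippo pathway.

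Promoter windows of the RefSeq table (GRCh38.p14, from 250 bases before to 50 after a gene's start) were matched by symbol for 32 of the 40 genes, 42 windows in all. The E-box was searched as CACGTG, which reads the same on both strands. It lay in 13 of 34 windows of ribosome biogenesis genes (38.2%), against 1375 of 14786 windows of all protein-coding genes tested in H1299 (9.30%). Counted by gene, 13 of 27 biogenesis genes held it in a window (48.1%), against 1275 of 10083 (12.6%). The TEAD core GGAATG, searched on both strands, lay in 6 of the 34 windows (17.6%), against 11.2% of the same background. A match describes the letters of the window and is not evidence of binding. The windows of DDX21, an RNA helicase of the nucleolus (chr10:68956397-68956696, + strand), BYSL, a small-subunit maturation factor (chr6:41921249-41921548, + strand), and RRP9, a component of the U3 snoRNP (chr3:51941855-51942154, - strand), are shown because their genes had the lowest siTAZ change in H1299 among those with an E-box window; capitals mark the E-box, which starts at base 220, base 279 and base 246 of its window in that order.
DDX21: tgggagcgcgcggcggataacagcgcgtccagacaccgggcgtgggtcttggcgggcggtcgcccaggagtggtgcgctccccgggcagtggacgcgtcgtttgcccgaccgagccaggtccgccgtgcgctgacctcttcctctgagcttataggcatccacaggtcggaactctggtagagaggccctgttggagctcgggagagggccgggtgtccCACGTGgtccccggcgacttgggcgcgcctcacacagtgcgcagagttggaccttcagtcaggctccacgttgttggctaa
BYSL: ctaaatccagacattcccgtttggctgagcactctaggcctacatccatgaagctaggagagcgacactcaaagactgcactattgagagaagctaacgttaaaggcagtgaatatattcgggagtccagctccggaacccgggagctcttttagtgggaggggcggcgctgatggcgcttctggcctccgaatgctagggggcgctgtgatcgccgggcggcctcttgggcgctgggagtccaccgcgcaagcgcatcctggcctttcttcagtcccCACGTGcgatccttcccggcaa
RRP9: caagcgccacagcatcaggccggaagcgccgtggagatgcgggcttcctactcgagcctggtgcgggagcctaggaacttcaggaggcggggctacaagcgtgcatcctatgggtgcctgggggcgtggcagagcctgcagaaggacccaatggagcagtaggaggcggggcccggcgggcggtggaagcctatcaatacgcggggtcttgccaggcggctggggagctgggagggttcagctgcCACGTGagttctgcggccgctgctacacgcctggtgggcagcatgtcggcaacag
Among the biogenesis genes with a window, the median siTAZ change in H1299 was -0.50 in the 13 with an E-box and -0.43 in the 14 without one, and the lowest, that of NIP7 at -0.92, belonged to a gene without one.

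The knockdowns were examined first. WWTR1 stood at 36.1, 82.7 and 29 CPM in H1299 siTAZ libraries, against 265, 276 and 229 CPM in siControl libraries, so that siTAZ replicate 2 kept the most WWTR1. YAP1 stood at 12.8, 19.6 and 11.7 CPM in H1299 siYAP libraries, against 83.6, 83.8 and 77.9 CPM in siControl libraries. In A549, WWTR1 stood at 70.7, 50.9 and 51.6 CPM with siTAZ, against 174, 180 and 176 CPM with siControl. YAP1 in A549 stood at 17.0, 15.5 and 19.5 CPM with siYAP, against 59.6, 56.9 and 58.3 CPM with siControl. All these groups lay apart. The keratins KRT8 and KRT18, which mark epithelial cells, had group means of 161 to 209 and 193 to 250 CPM in H1299 and of 2721 to 3458 and 1064 to 1535 CPM in A549, while EPCAM stayed at or below 0.411 CPM and KRT19 at or below 0.444 CPM in H1299. In A549, KRT19 had group means of 243 to 287 CPM and EPCAM of 2.72 to 3.09 CPM. CDH1, which was not listed for H1299, had group means of 52.0 to 60.3 CPM in A549. The epithelial markers are therefore only partly present in H1299, and EPCAM is low in both lines.

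MYC fell with siTAZ in H1299 by nearly 1 log2 unit. It stood at 69.2, 70.0 and 72.9 CPM in siTAZ libraries, against 135, 135 and 142 CPM in siControl libraries. The groups lay far apart and the siTAZ libraries hardly differed from each other. The log2 change was -0.96 ± 0.11 (edgeR adjusted p = 0.000334), that is 51.5% of the control mean. In bulk libraries of this kind, fewer cells that express a gene and less of its RNA per cell cannot be told apart. MYC also fell with siYAP, to 77.6, 104 and 112 CPM, below every control library but with more spread; its change was -0.49 ± 0.11 (adjusted p = 0.0112). Set directly against siYAP, siTAZ gave a further change of -0.47 ± 0.11 (adjusted p = 0.0165). The siTAZ call against control held without any 1 library and without all libraries of any 1 number. MYC was followed because of its fall with siTAZ, so p-values of MYC that use the H1299 siTAZ libraries are not independent of that choice. The siYAP call was lost without all libraries numbered 1 (adjusted p = 0.125) or 3 (adjusted p = 0.101). The siTAZ against siYAP call was lost without siTAZ replicate 1 (adjusted p = 0.0549), siTAZ replicate 3 (0.0526), siYAP replicate 2 (0.0534) or siYAP replicate 3 (0.0984), and without all libraries numbered 3 (0.260).

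In A549 no change of MYC was called. It stood at 81.4, 82.7 and 96.5 CPM in siTAZ libraries, at 83.5, 78.8 and 95.4 CPM in siYAP libraries and at 87.7, 91.0 and 98.0 CPM in siControl libraries, and the groups overlapped. The changes were -0.09 ± 0.10 with siTAZ and -0.10 ± 0.10 with siYAP, both with an adjusted p near 1 (edgeR), and with the replicate number as a block the adjusted p was 0.158 and 0.107. The siTAZ fall in H1299, for which MYC was chosen, is part of its difference between the lines. The siTAZ change of MYC in H1299 minus that in A549 was -0.88 ± 0.16 (adjusted p = 0.0281, edgeR joint fit of 18 libraries). This call was lost, with values of -0.89 to -0.84, without H1299 siTAZ replicate 1 (adjusted p = 0.0768) or 3 (0.0874), H1299 siControl replicate 1 (0.107) or 3 (0.0898), or A549 siControl replicate 1 (0.0804) or 2 (0.0650). The corresponding difference for siYAP was -0.38 ± 0.16, with an adjusted p of 0.398, and of 0.0187 when the replicate number was a block.

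None of the 5 partners of MYC was called with siTAZ in H1299. MAX, which MYC needs to bind DNA, stood at 41.2, 43.8 and 42.7 CPM in H1299 siTAZ libraries, 45.4, 46.0 and 50.9 CPM in siYAP libraries and 46.2, 48.4 and 43.8 CPM in siControl libraries; its siTAZ change of -0.12 ± 0.08 was not called (adjusted p = 0.339). MNT, a repressor partner expressed widely, was above every control library under both siRNAs, at 60.4, 57.0 and 58.2 CPM with siTAZ and 66.7, 61.0 and 61.3 CPM with siYAP, against 53.4, 48.5 and 51.2 CPM with siControl. Its change was called with siYAP (0.30 ± 0.08, adjusted p = 0.0203), the only one of the 40 genes called higher there, and not with siTAZ (0.20 ± 0.08, adjusted p = 0.0876; 0.0318 with the block). Without siYAP replicate 1 or 3, or siControl replicate 1, 2 or 3, the siYAP call of MNT was lost, with an adjusted p of 0.0532 to 0.104.

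MXD4, another repressor partner, stood at 99.6, 140 and 117 CPM in H1299 siTAZ libraries, 103, 103 and 105 CPM in siYAP libraries and 80.4, 116 and 82.4 CPM in siControl libraries, and siTAZ and siControl overlapped because siControl replicate 2 lay above siTAZ replicate 1. Its siTAZ change of 0.36 ± 0.14 passed only with the block (adjusted p = 0.0772 without and 0.00921 with it). MXD1 stood at 20.3, 17.0 and 19.6 CPM with siTAZ, 20.7, 18.3 and 21.9 CPM with siYAP and 21.5, 14.7 and 20.9 CPM with siControl. MXI1 stood at 17.9, 25.1 and 17.5 CPM with siTAZ, 22.0, 19.6 and 18.1 CPM with siYAP and 18.7, 24.5 and 16.8 CPM with siControl. Neither MXD1 nor MXI1 was called, with siTAZ changes of -0.01 ± 0.14 and 0.01 ± 0.16. In A549 none of the 5 partners was called, and their siTAZ changes ran from 0.04 for MNT to 0.21 for MXD1.

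**Figure D1:**
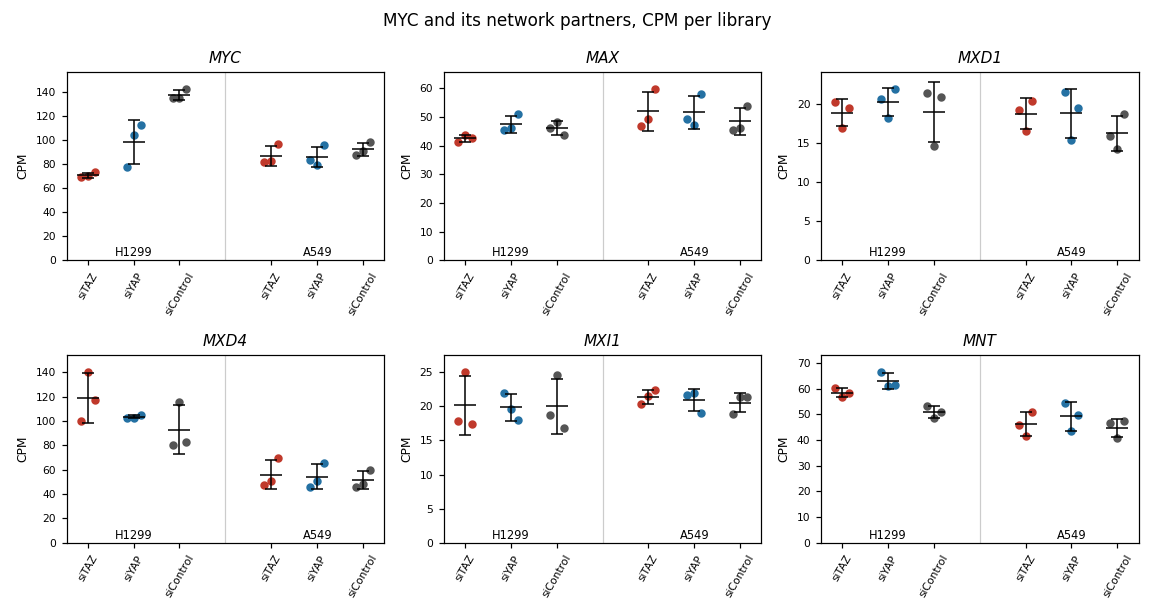
CPM (y axis, from 0) of MYC and its 5 partners in each library of H1299 (left) and A549 (right) by siRNA (x axis); points are libraries, the bar is the mean and the whiskers the SD, n = 3. MYC lies at 69.2 to 72.9 CPM in H1299 siTAZ libraries, against 135 to 142 CPM in siControl libraries, and overlaps between the A549 groups.

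The ribosome biogenesis genes fell together with siTAZ in H1299. Of the 34, 31 were called lower and 0 higher, and all 34 had a negative change; with MYC, 32 of the 40 genes were lower. Over all 15775 genes tested, 12.4% were called lower and 10.9% higher. The median change of the 34 was -0.48, against 0.01 for all genes tested. The 31 called genes had changes of -0.92 to -0.28, that is 52.9% to 82.1% of control. For 32 of the 34, every siTAZ library was below every control library, as it was for 20.1% of all genes. MNT was the 1 gene of the 40 with every siTAZ library above every control library (18.6% of all genes). The genes not called were RRP12, a small-subunit assembly factor, and the RNA polymerase I subunits POLR1A and POLR1C, with changes of -0.24 to -0.20 (adjusted p = 0.0952 to 0.163); with the block all 3 passed, so that 35 of the 40 were lower and 2, MXD4 and MNT, higher, against 18.9% and 16.7% of all genes. With library totals in place of TMM scaling, the median of all genes was 0.08 and that of the 40 was -0.37, in place of -0.44, and 29 of the 40 were called lower and 1 higher. The calls over all genes then stood at 2330 higher and 1365 lower, in place of 1717 and 1963.

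The number of calls depended on single libraries more than the direction did. Of the 32 genes called, 20 were called without siTAZ replicate 3, 23 without siControl replicate 1, 15 without all libraries numbered 1 and 2, MYC and NIP7, without all libraries numbered 3, a fit that called 144 genes in all. All 32 stayed negative under each of these settings, and their median change lay between -0.55 and -0.43 over the alternatives run.

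The snoRNP genes, which encode proteins of these particles or a chaperone of them, were all called lower (8 of 8, median -0.56). DKC1, the pseudouridine synthase dyskerin, stood at 80.5, 82.2 and 74.3 CPM in siTAZ libraries, against 121, 109 and 119 CPM in siControl libraries, a change of -0.56 ± 0.08 (adjusted p = 0.000791). NOLC1, a nucleolar chaperone of snoRNPs, stood at 126, 115 and 108 CPM with siTAZ, against 202, 161 and 186 CPM with siControl, a change of -0.66 ± 0.09 (adjusted p = 0.00087). In both genes the groups lay apart, and the control library numbered 2 was the lowest of its group. FBL, the methyltransferase fibrillarin, changed by -0.56 ± 0.11 and NOP56, its core partner, by -0.57 ± 0.09; NOP58 had the smallest change of the group at -0.35 ± 0.10 (adjusted p = 0.0226).

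All 6 nucleolar core genes were called lower (median -0.50). TCOF1, the treacle protein that supports transcription of ribosomal RNA genes, stood at 139, 126 and 111 CPM with siTAZ, against 222, 186 and 210 CPM with siControl, and changed by -0.72 ± 0.12 (adjusted p = 0.00186). DDX21 and GNL3, a nucleolar GTPase also called nucleostemin, changed by -0.63 ± 0.10 and -0.54 ± 0.10. The abundant nucleolar proteins NPM1 and NCL changed least, by -0.38 ± 0.11 (adjusted p = 0.022) and -0.37 ± 0.09 (adjusted p = 0.0119). NPM1 has 45 named pseudogenes in GENCODE release 29, and reads that match a copy may be split.

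Among the small-subunit genes 4 of 5 were called (median -0.41). BYSL stood at 34.1, 32.4 and 32.7 CPM with siTAZ, against 51.1, 46.2 and 52.5 CPM with siControl, and changed by -0.60 ± 0.09 (adjusted p = 0.00112). The groups lay apart by more than their own spread. All 12 large-subunit genes were called lower (median -0.40), from NIP7 at -0.92 to WDR74, an assembly factor released by the ATPase NVL, at -0.28 ± 0.08 (adjusted p = 0.0205). NIP7, a pre-rRNA processing factor, stood at 22.4, 28.6 and 20.1 CPM with siTAZ, against 43.7, 44.9 and 45.9 CPM with siControl, a change of -0.92 ± 0.11 (adjusted p = 0.000417) that was the largest of the 34 and close to that of MYC. NIP7 overlaps the opposite-strand gene COG8 and has 3 named pseudogenes, and how strand was counted is not given in the sources used here. Of the RNA polymerase I subunits, POLR1B was called (-0.50 ± 0.08, adjusted p = 0.00174).

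**Figure D2:**
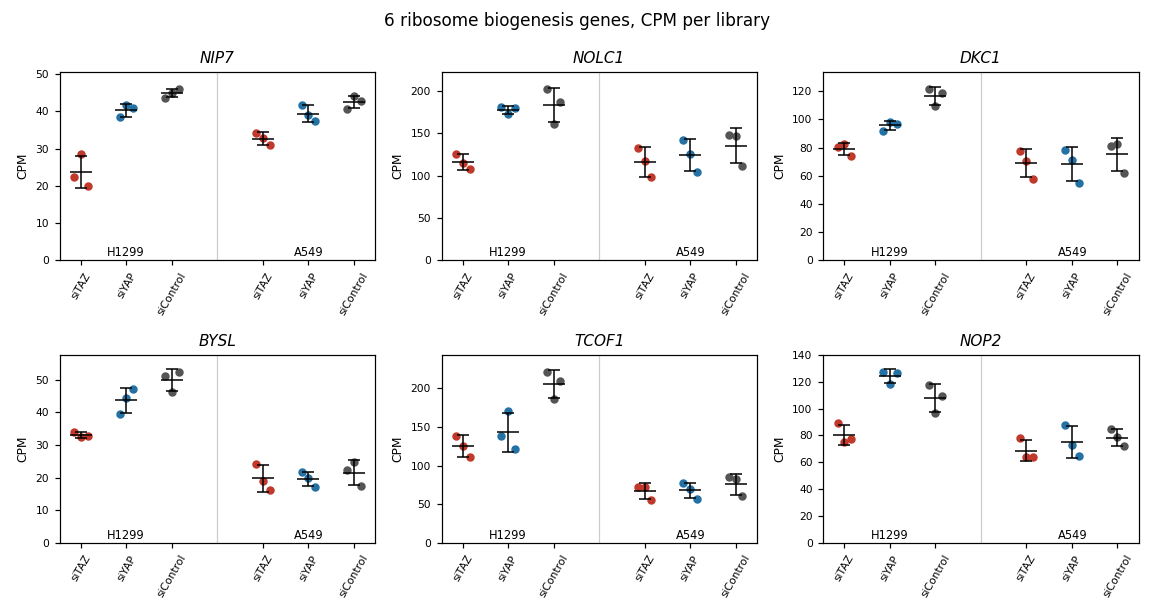
CPM (y axis, from 0) of 6 ribosome biogenesis genes in each library by line and siRNA (x axis); points are libraries, the bar is the mean and the whiskers the SD, n = 3. In H1299 the siTAZ libraries lie below the siControl libraries in every panel, while NOP2 is at 118 to 127 CPM with siYAP, above all 3 siControl libraries.

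With siYAP in H1299, few of the same genes passed. Of the 34, 3 were called lower (TCOF1, GAR1 and DKC1), 0 were called higher, and the median was -0.15, against 0.01 for all genes tested. With MYC this made 4 of the 40 lower and 1, MNT, higher, where 8.75% of all genes tested were called lower and 7.89% higher, so the share of members was near that of all genes. TCOF1 stood at 138, 171 and 121 CPM with siYAP, against 222, 186 and 210 CPM with siControl, a change of -0.52 ± 0.12 (adjusted p = 0.0124). GAR1, a small H/ACA snoRNP protein, stood at 15.4, 19.8 and 17.7 CPM with siYAP, against 24.1, 21.8 and 23.8 CPM with siControl, a change of -0.40 ± 0.11 (adjusted p = 0.0232). DKC1 stood at 92.0, 98.2 and 96.8 CPM with siYAP, against 121, 109 and 119 CPM with siControl, a change of -0.28 ± 0.08 (adjusted p = 0.026). These 3 genes, named because they were called, had no overlap between the groups. Over all genes tested, every siYAP library was below every control library for 18.3%. RRS1, which helps to load the 5S particle, stood at 40.5, 39.8 and 44.7 CPM with siYAP, against 49.9, 50.8 and 48.1 CPM with siControl, and its change of -0.25 ± 0.09 passed only with the block (adjusted p = 0.0602 without and 0.0298 with it).

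With the block, 9 of the 40 were lower with siYAP and 3 higher (14.7% and 13.6% of all genes). The added lower genes were NPM1, FBL, RRP9, RRS1 and UTP4, and the added higher ones were NOP2, a ribosomal RNA methyltransferase of the large subunit, and RRP12. NOP2 stood at 127, 118 and 127 CPM with siYAP, against 118, 96.9 and 110 CPM with siControl (0.20 ± 0.09, adjusted p = 0.158 without and 0.0341 with the block). Without siYAP replicate 1, siYAP replicate 3 or siControl replicate 1 the count of lower genes was 1, without siControl replicate 3 it was 2, without siTAZ replicate 2, which shares the fit, it was 6, without all libraries numbered 1 or 3 it was 0, and without all numbered 2 it was 12. All siYAP libraries were below all control libraries for 15 of the 40 genes (18.3% of all genes) and above them for 3 (17.8%). With library totals 2 of the 40 were called higher, and the calls over all genes stood at 1487 higher and 1087 lower in place of 1244 and 1381.

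The direct comparison of the siRNAs in H1299, which uses no control library in its contrast, put siTAZ below siYAP. Of the 34 biogenesis genes 16 were called lower and 0 higher, and with MYC 17 of the 40 lower and 0 higher, against 5.6% and 6.1% of all genes tested; with the block 24 were lower and 0 higher (11% and 10.5%). All 34 changes were negative, with a median of -0.29 against -0.01 for all genes. NIP7 stood at 22.4, 28.6 and 20.1 CPM with siTAZ, against 38.3, 41.6 and 41 CPM with siYAP (-0.77 ± 0.11, adjusted p = 0.00111). NOP2 stood at 89.0, 74.9 and 77.6 CPM with siTAZ, against 127, 118 and 127 CPM with siYAP (-0.63 ± 0.09, adjusted p = 0.00115). NOLC1 stood at 126, 115 and 108 CPM with siTAZ, against 181, 172 and 180 CPM with siYAP (-0.62 ± 0.09, adjusted p = 0.00132). For each of these 3 genes the siTAZ libraries lay below all siYAP libraries. The other 13 were NOP56, NOP16, NHP2, DKC1, BOP1, WDR12, RRP12, POLR1B, POLR1C, DDX21, GNL3, MYBBP1A and BYSL. TCOF1 and GAR1, which were lower with both siRNAs than with siControl, differed between them by -0.20 ± 0.12 and -0.13 ± 0.11 (adjusted p = 0.344 and 0.498). For 29 of the 40 genes every siTAZ library was below every siYAP library (15.3% of all genes), and for 0 above (14.3%). The count of 17 was 8 without siTAZ replicate 3, 9 without siYAP replicate 3, 7 without all libraries numbered 1 and 0 without all numbered 3; in the last fit no change turned positive among those 17 genes.

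**Figure D3:**
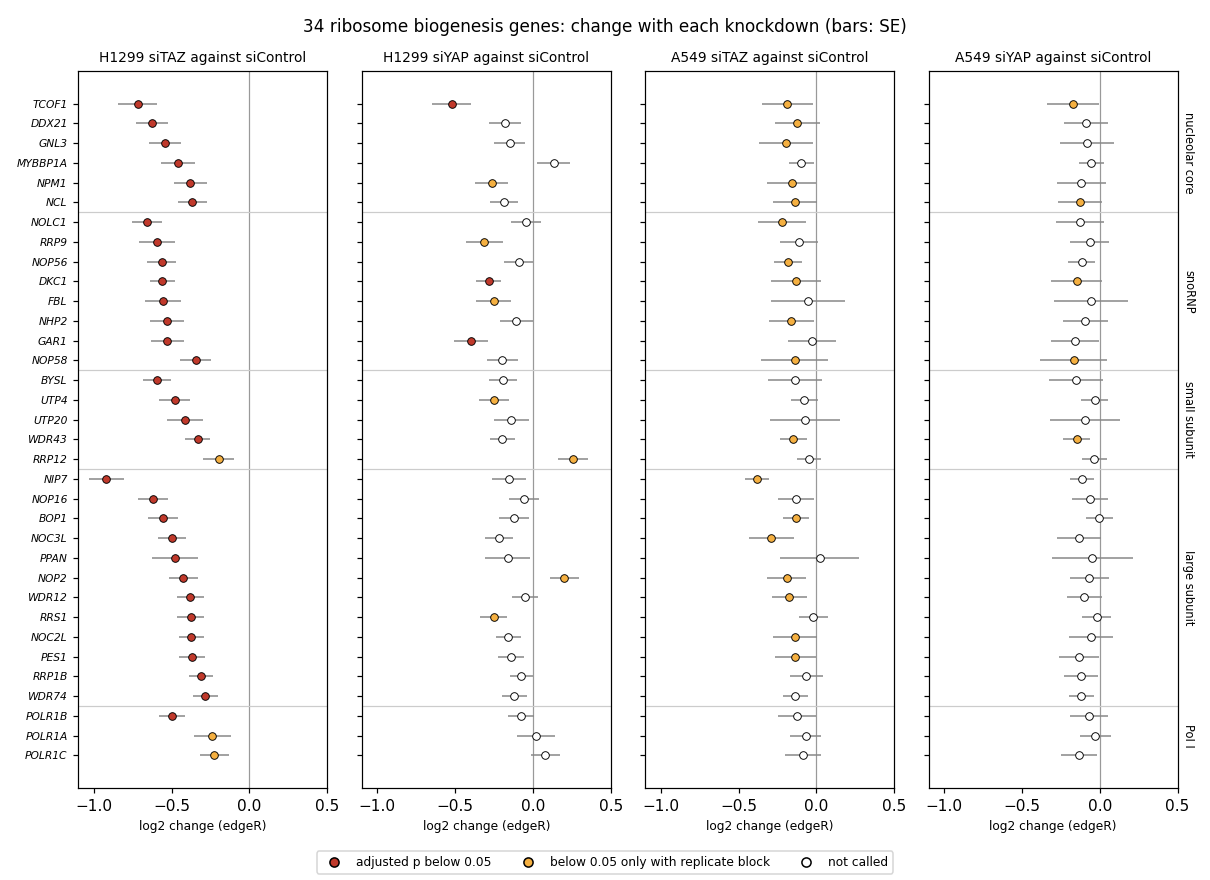
Log2 change (x axis, edgeR, bars are the standard error) of the 34 ribosome biogenesis genes, grouped by role (Pol I is RNA polymerase I), for siTAZ and siYAP against siControl in H1299 and in A549; filled points passed an adjusted p of 0.05 without the block and orange points only with it. In H1299 with siTAZ all 34 points lie below 0, with 31 called without the block, while in A549 none was.

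In A549 no gene of the 40 was called with siTAZ or siYAP without the block. At an unadjusted p below 0.05 the siTAZ comparison had 1 gene, NIP7, and the siYAP comparison 0, and over all genes tested 0.00625% were called lower with either siRNA and 0 genes higher; DESeq2 called 0 of the 40 with siYAP and NIP7 with siTAZ (-0.39, adjusted p = 0.0374). The median change of the 34 was -0.13 with siTAZ and -0.10 with siYAP, against 0.00 for all genes in both. NIP7 stood at 34.3, 32.8 and 30.9 CPM in siTAZ libraries, at 41.7, 39.1 and 37.3 CPM in siYAP libraries and at 40.7, 44.1 and 42.7 CPM in siControl libraries, a siTAZ change of -0.38 ± 0.08 (edgeR adjusted p = 0.289). Its siTAZ libraries lay below all siYAP and siControl libraries. Every siTAZ library was below every control library for 2 of the 40, NIP7 and WDR74, and above for 0 (4.24% and 5.04% of all genes), and for siYAP both counts were 0 (3.12% and 4.09%). NOC3L, the counterpart of another yeast large-subunit export factor, stood at 26.6, 25.4 and 20.2 CPM with siTAZ, against 31.0, 30.7 and 26.3 CPM with siControl (-0.29 ± 0.14). Its groups overlapped, but it was lower with siTAZ in all 3 same-numbered pairs, and it was called with the block (adjusted p = 0.000742). NOP56 stood at 165, 145 and 139 CPM with siTAZ, against 182, 172 and 154 CPM with siControl (-0.18 ± 0.09), again with overlap and a call with the block (adjusted p = 0.00138). WDR74 stood at 24.5, 24.1 and 24.5 CPM with siTAZ, 27.0, 23.7 and 23.4 CPM with siYAP and 26.5, 27.6 and 26.0 CPM with siControl, and its siTAZ change was -0.13 ± 0.08. WDR43, a small-subunit processome protein, stood at 103, 91.9 and 85.6 CPM with siYAP, against 105, 105 and 101 CPM with siControl (-0.15 ± 0.09).

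The replicate number carried much of the spread in A549. The summed level of the 34 genes was 3967, 3693 and 3060 CPM in siTAZ libraries 1 to 3, 3999, 3835 and 3140 CPM in siYAP libraries and 4198, 4180 and 3420 CPM in siControl libraries, so the library numbered 3 was the lowest of each group. With the block, 18 of the 34 were called lower with siTAZ and 0 higher (6.12% and 7.21% of all genes), and 5 lower and 0 higher with siYAP (3.17% and 2.5%). The 18 siTAZ changes ran from -0.38 for NIP7 (adjusted p = 1.8e-06 with the block) to -0.12. They include the nucleolar core genes NCL, NPM1, TCOF1, DDX21 and GNL3 the large-subunit genes NOC3L and NOP2, and the snoRNP genes NOP56, NOP58, NOLC1, DKC1 and NHP2. The siYAP genes were TCOF1, NCL, DKC1, NOP58 and WDR43. In the siTAZ against siYAP comparison of A549, 0 of the 40 were called without the block (1 at an unadjusted p below 0.05, 0 by DESeq2), where 0.00625% of all genes were called in each direction, and 1, NIP7, was lower with it (2.52% of all genes lower and 4.52% higher). All siTAZ libraries were below all siYAP libraries for 2 of the 40 and above for 0 (4.18% and 4.06%).

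The same pairing can be followed in H1299 gene by gene. In each of the 3 same-numbered pairs all 34 biogenesis genes were lower with siTAZ than with siControl, with a median log2 ratio (CPM + 0.5) of -0.48, -0.35 and -0.53 for numbers 1 to 3, while MYC was at -0.96, -0.94 and -0.96. The pair numbered 2, in which siTAZ left the most WWTR1, had the smallest median shift of the 34 and, by a small margin, of MYC; the part of the remaining WWTR1 in this was not tested. With siYAP the medians were -0.23, -0.04 and -0.15, with 30, 24 and 26 of the 34 below control, and MYC was at -0.79, -0.37 and -0.34. In A549 the siTAZ medians were -0.07, -0.19 and -0.11, with 29, 33 and 28 of the 34 below control, and MYC was at -0.11, -0.14 and -0.02. siTAZ and siYAP ratios share their control libraries. The share of all genes tested that lay below control in each pair was not counted, so these counts have no background beside them.

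**Figure D4:**
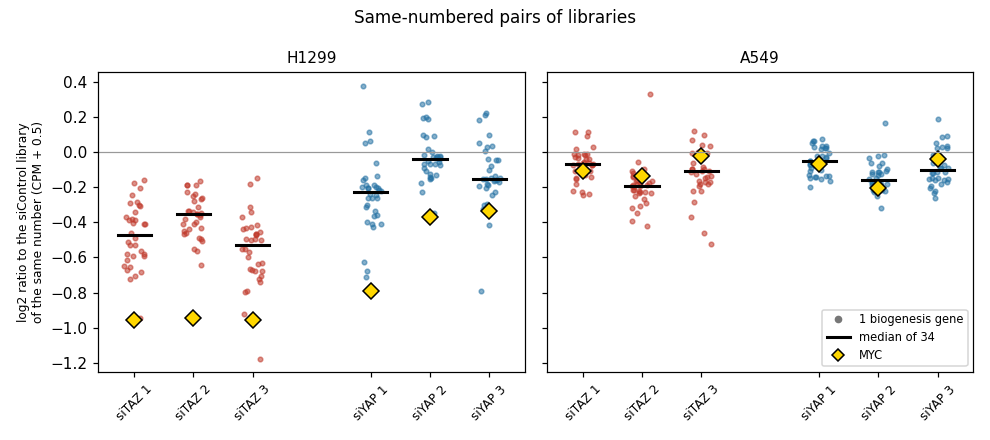
Log2 ratio of CPM + 0.5 (y axis) of each siTAZ or siYAP library to the siControl library of the same number (x axis) in H1299 (left) and A549 (right); small points are the 34 ribosome biogenesis genes, black bars their median and diamonds MYC. In H1299 with siTAZ every point lies below 0 in all 3 pairs and MYC lies near -0.95, while with siYAP MYC is lowest in the pair numbered 1, at -0.79.

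Tested as a difference of the lines, the biogenesis genes did not pass without the block. The siTAZ change in H1299 minus that in A549 was negative for all 34, with a median of -0.36 against -0.02 for all genes tested, and 0 of the 34 were called (15 at an unadjusted p below 0.05), so that MYC was the 1 gene of 40 called, against 0.164% of all genes lower and 0.215% higher; DESeq2 also called NIP7 (-0.54, adjusted p = 0.0282; 0.0848 with edgeR). With the block 21 of the 40 were called, all lower in H1299, against 10.4% of all genes lower and 7.33% higher, among them 7 of the 8 snoRNP genes and 4 of the 6 nucleolar core genes. For the siYAP change 0 of the 40 were called (2, MYC and RRP12, at an unadjusted p below 0.05, 0 by DESeq2; 0.0506% of all genes lower and 0.0316% higher), and the median of the 34 was -0.04 against -0.01 for all genes. With the block NOP2 and RRP12 were higher and MYC lower in H1299 than in A549 (4.75% and 6.07% of all genes). With library totals the calls over all genes were 83 higher and 18 lower in place of 34 and 26 for siTAZ, and 8 and 8 in place of 5 and 8 for siYAP.

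In siControl cells the lines differed in these genes about as often as in others. Set against A549, H1299 had 17 of the 40 called higher and 10 lower, against 37.7% and 37% of all genes tested, and 17 and 13 with the block (38.5% and 36.8%); with library totals the members stood at 21 and 5, the median of all genes at 0.24 and all calls at 7095 higher and 4734 lower in place of 5958 and 5852. The smallest p-values were those of NOC2L, the counterpart of a yeast large-subunit export factor (1.36 ± 0.11), POLR1C (0.85 ± 0.10) and PPAN, a large-subunit factor (1.58 ± 0.20), all higher in H1299. PPAN shares its locus with the readthrough gene PPAN-P2RY11 and averaged 7.64 ± 0.744 CPM in H1299 and 2.12 ± 0.381 CPM in A549 siControl libraries, each scaled within its own line, so that their ratio is not the joint-fit change. MYC averaged 137 ± 4.25 CPM in H1299 and 92.2 ± 5.25 CPM in A549 siControl libraries (SD, n = 3 each), CPM that were scaled within each line and do not share a scale. The joint fit, which scales all 18 libraries together, gave MYC a change of 0.26 ± 0.11 at the edge of the threshold (adjusted p = 0.0486), which was lost in 13 of the 18 settings with 1 library left out (adjusted p up to 0.145, without A549 siControl replicate 1). Per kb of exon of the coding transcript, FBL, NPM1 and NCL had the highest siControl levels in both lines, at 301 ± 11.8, 240 ± 1.92 and 190 ± 14.6 CPM per kb in H1299 and 167 ± 44.2, 362 ± 38.5 and 185 ± 20.9 CPM per kb in A549. On that scale FBL, NPM1 and NCL lay apart in H1299, while FBL and NCL overlapped in A549, and MYC was at rank 11 of 40 in H1299 and rank 10 in A549.

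Other genes of the pathway were read from lists chosen by function. In H1299 with siTAZ, 20 of 39 other small-subunit genes, 17 of 31 other large-subunit genes and 6 of 16 other RNA polymerase I genes were called lower, and 0 of each higher, against the 12.4% of all genes given above; their medians were -0.27, -0.29 and -0.30, against 0.01 for all genes. TSR1 and RIOK1, which mature the small subunit, averaged 59.1 ± 3.40 and 34.2 ± 3.58 CPM with siTAZ, against 85.5 ± 7.72 and 51.0 ± 2.81 CPM with siControl (SD, n = 3 each), changes of -0.53 ± 0.09 and -0.58 ± 0.10. RPF2 and BRIX1, which act on the large subunit, changed by -0.59 ± 0.08 and -0.67 ± 0.10, and the polymerase subunits POLR1E and POLR2H by -0.70 ± 0.12 and -0.38 ± 0.08. With siYAP the lower calls of the 3 lists were 2, 3 and 1, near or below the 8.75% of all genes. With the block they were 7 of 39, 7 of 31 and 7 of 16, each a larger share than the 14.7% of all genes. Without siTAZ replicate 3 the siTAZ counts were 8 and 10 for the small and large subunit, without siControl replicate 1 they were 9 and 11, without siControl replicate 3 that of the small subunit was 13, without all libraries numbered 1 the 3 counts were 4, 7 and 1, and without all numbered 3 they were 0.

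Of 31 other growth genes known as MYC targets, 23 were called lower with siTAZ in H1299 and 0 higher (median -0.47), and 8 were lower with siYAP, where 12.4% of all genes tested were lower with siTAZ and 8.75% with siYAP. HSPD1, a mitochondrial chaperone, averaged 224 ± 15.5 CPM with siTAZ, 284 ± 3.09 CPM with siYAP and 353 ± 26.9 CPM with siControl, a siTAZ change of -0.65 ± 0.09 (adjusted p = 0.000623). SRM, spermidine synthase, averaged 49.1 ± 7.80 CPM with siTAZ, 82.9 ± 10.2 CPM with siYAP and 90.3 ± 7.81 CPM with siControl, a siTAZ change of -0.88 ± 0.12 (adjusted p = 0.000693). The siYAP count of 8 was 3 without siYAP replicate 1, 2 without siYAP replicate 3 and 3 without siControl replicate 1. Without siTAZ replicate 3 the siTAZ count was 15, without all libraries numbered 1 it was 7 and without all numbered 3 it was 0.

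The ribosomal proteins themselves moved less and depended on the fit. Of 79, 19 were called lower with siTAZ in H1299 and 0 higher, 78 had a negative change, and the median was -0.29; with the block 67 were lower. Over all genes tested 12.4% were called lower, and 18.9% with the block. RPL21 averaged 15.4 ± 0.819 CPM with siTAZ, against 22.9 ± 0.423 CPM with siControl (-0.57 ± 0.09), and RPS26 24.8 ± 3.43 CPM, against 37.9 ± 2.04 CPM (-0.61 ± 0.11). Their transcripts have many processed pseudogenes, so reads may be split between copies. The summed level of the 79 was 21815, 31371 and 23680 CPM in siTAZ libraries, against 30238, 35205 and 29472 CPM in siControl libraries, and the libraries numbered 2 were the highest of both groups. The count of 19 was 6 without siTAZ replicate 1, 72 without replicate 2 and 5 without replicate 3, 5, 8 and 12 without siControl replicates 1 to 3, and 6 with library totals.

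Genes of the cell cycle were lower too. All 19 genes of the G1/S and replication list were called lower with siTAZ in H1299 (median -0.82), and 17 of 19 with siYAP (median -0.60), against 12.4% and 8.75% of all genes tested. MCM6, a subunit of the replicative helicase, averaged 106 ± 3.0 CPM with siTAZ, 140 ± 10.9 CPM with siYAP and 186 ± 18.4 CPM with siControl, and CDC6, which loads that helicase, 28.8 ± 2.73, 46.0 ± 3.69 and 63.8 ± 12.2 CPM. The siTAZ changes were -0.82 ± 0.09 and -1.15 ± 0.13 (adjusted p = 0.000325 for both). The part of cell cycle state in the change of the biogenesis genes was not tested. Without all libraries numbered 3 the siTAZ count was 6, and the siYAP count of 17 was 10 without siYAP replicate 1, siYAP replicate 3 or siControl replicate 1 and 0 without all libraries numbered 1 or 3.

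**Figure D5:**
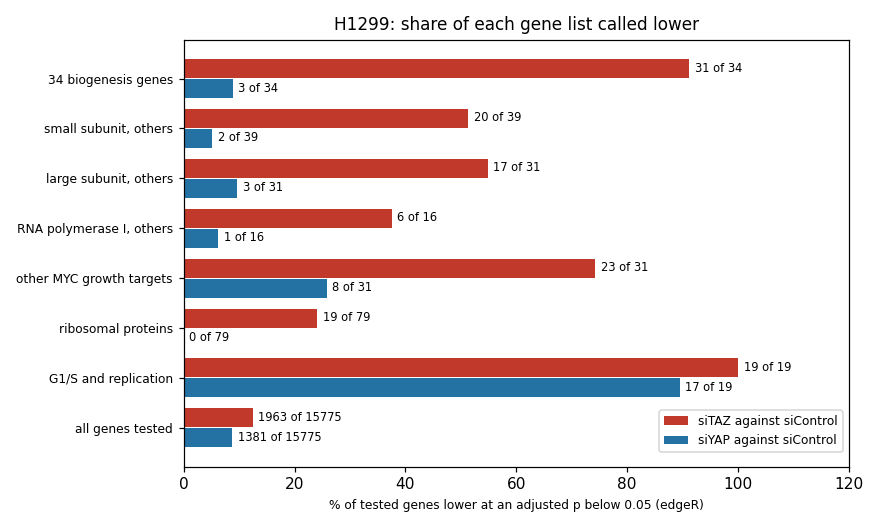
Share of each list's tested genes that were called lower in H1299 (x axis, percent, from 0; edgeR adjusted p below 0.05) with siTAZ (upper bar) and siYAP (lower bar), with counts beside the bars. The 34 biogenesis genes stand at 31 of 34 with siTAZ and 3 of 34 with siYAP, while the G1/S and replication list stands at 19 of 19 and 17 of 19.

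Some genes that act on MYC were called lower in H1299. Of 10 genes of MYC turnover, 4 were called lower with siTAZ in H1299, among them KIAA1524, and 0 higher, and 4 were also lower with siYAP, against 12.4% and 8.75% of all genes tested. KIAA1524, which encodes the MYC-stabilising protein CIP2A, averaged 28.5 ± 2.70 CPM with siTAZ, 28.7 ± 5.92 CPM with siYAP and 52.8 ± 8.49 CPM with siControl, changes of -0.89 ± 0.15 and -0.88 ± 0.15 that differed by -0.01 ± 0.15 between the siRNAs. Of 11 other network genes 3 were lower with siTAZ, the cofactors RUVBL1 (-0.36 ± 0.09), WDR5 (-0.32 ± 0.09) and RUVBL2 (-0.31). With siYAP 1 of these 11 was lower, where 12.4% of all genes tested were lower with siTAZ and 8.75% with siYAP. Without siTAZ replicate 3 the siTAZ counts of these 2 lists were 2 and 0, without siControl replicate 1 the second was 1, without all libraries numbered 1 they were 1 and 0, and without all numbered 3 both were 0.

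Markers of other cell types moved with the groups in a few cases, at low levels. Of 11 such markers 4 were tested in H1299, and VWF, an endothelial gene, and PDGFRB, a gene of mesenchymal cells, were called higher with siTAZ; PDGFRB was also called with siYAP. They averaged 0.752 ± 0.344 and 3.72 ± 0.966 CPM with siTAZ, against 0.212 ± 0.0380 and 2.13 ± 0.317 CPM with siControl (SD, n = 3 each). Over all genes tested, 10.9% were called higher with siTAZ and 7.89% with siYAP. PECAM1, a further endothelial gene, had group means of 0.977 to 1.40 CPM in H1299, and DCN, a fibroblast gene, of 0.275 to 0.384 CPM. The summed level of the 7 markers listed was 57.8 to 61.1 CPM with siTAZ, 46.5 to 49.4 CPM with siYAP and 43.9 to 58.0 CPM with siControl, and most of it was MBP, whose group means were 41.1 to 53.2 CPM. Of the epithelial markers KRT18 was called lower with siTAZ (-0.37 ± 0.10) and not with siYAP (-0.02 ± 0.10). KRT8 was not called with siTAZ (-0.02 ± 0.11, adjusted p = 0.898) and was called higher with siYAP (0.36 ± 0.11, adjusted p = 0.0396). CD68, a macrophage gene, had a highest group mean of 0.113 CPM in H1299. The part of these genes in the results was not tested.

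By position, 1 further feature was more frequent among the 34 biogenesis genes than among all protein-coding genes tested. In GENCODE release 29, 8 of the 34 hold annotated small nucleolar RNAs, 26 in all (NCL, NOP56, NOP58, DKC1, WDR43, GNL3, PPAN and POLR1C), which is 23.5% of them against 218 of 12717 protein-coding genes tested in H1299 (1.71%). These small RNAs, which carry no poly(A) tail, were not measured here. Of the 40 genes 20 overlap another annotated gene, 16 of them on the opposite strand, and 7 have named pseudogenes, so that reads from such neighbours or copies may be included.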

How the data were processed

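Poly(A) RNA was sequenced from 18 libraries in 6 groups of 3. Per the submitters' processing notes, reads were trimmed with cutadapt and aligned to GRCh38 with STAR 2.4.2a; no source used here gives the counting tool, the gene annotation or how strand was handled. The authors deposited 1 table per line with raw read counts per gene, which were the values analysed. Per the file headers, the authors also deposited normalized counts, a signal normalized before it was deposited and not used or tested here. They also deposited log2 values, log2 fold changes and p-values from DESeq2. None of these was analysed.

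Genes were kept by edgeR's filterByExpr and scaled by TMM, and each line's 9 libraries were fitted together with edgeR 4.0.16 (quasi-likelihood F test, R 4.3.3, Benjamini-Hochberg adjustment over all genes tested: 15775 in H1299 and 16008 in A549). Differences between the lines came from 1 fit of all 18 libraries on 15816 genes. The standard error is the log2 change divided by the square root of F. CPM values were scaled by the same TMM factors. The fits were run on simulated counts with the same dispersion for every gene and no effect of the replicate number. These settings differ from the data, so the simulation does not show how the fits behave on them.

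Alternatives were a block on the replicate number, DESeq2 1.42.0, DESeq2's size factors within edgeR, library totals without TMM, no filter on low counts, and leaving out each library or all libraries of 1 number. Same-numbered libraries deviated together, with correlations of 0.108 to 0.383 in H1299 and 0.384 to 0.729 in A549. Libraries of different numbers had correlations of -0.324 to 0.160 in H1299, which overlap the same-number range, and of -0.550 to 0.279 in A549. Sample descriptions also share a prefix within each number, A, B and C in H1299 and IQ, IY and IZ in A549. What a prefix stands for is not given. The numbers, which the labels carry, were treated as pairing the samples only in the block and in the same-numbered ratios. The main calls and standard errors come from fits without the block and ignore this pairing. Replicates of 1 group differed by more than sampling noise (chi-square per degree of freedom 6.54 to 30.7). Depth was 16.8 to 20.8 M assigned reads in H1299 and 10.7 to 45 M in A549.

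The 40 genes and the other lists were chosen with earlier results of these data known. Beyond MYC and its partners, the genes named are the 4 biogenesis genes with the smallest p for each knockdown, up to 3 called between siRNAs or lines, and the 2 genes with the smallest p of each other list (1 of these is not reported here); further genes of a role group were named after their values were seen. Gene positions and overlaps came from GENCODE release 29 and promoter windows from RefSeq, of which 8 of the 40 genes had none.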

Additional observations from a re-analysis of the deposited data

Results flagged for a closer look

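By a test of the difference itself in the joint edgeR fit, the siTAZ response was called different between the lines for MYC and SRM. MYC was chosen, and SRM was named, for a fall with siTAZ in H1299 that is part of this difference. The p-values below are therefore not independent of that choice. The MYC call was lost in 6 of the 18 settings with 1 library left out (edgeR adjusted p up to 0.107). For MYC the siTAZ change in H1299 minus that in A549 was -0.88 ± 0.16 (adjusted p = 0.0281). For SRM, spermidine synthase, it was -0.75 ± 0.16 (adjusted p = 0.0423), with 49.1 ± 7.80 CPM in siTAZ libraries of H1299, against 90.3 ± 7.81 CPM in siControl libraries, and 46.1 ± 3.42 CPM in siTAZ libraries of A549, against 50.5 ± 0.714 CPM in siControl libraries (SD, n = 3 each).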

How the results depend on the processing

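No call changed direction under the alternatives run. With the replicate number as a block, which the pairing check allows, the genes of the 40 called lower were 18 for A549 siTAZ, 5 for A549 siYAP, 1 for A549 siTAZ against siYAP, 9 for H1299 siYAP and 21 for the siTAZ difference between lines, in which DESeq2 called 2; for the siYAP difference 1 was lower, MYC at -0.38 (adjusted p = 0.0187), and 2 higher. Those called higher with the block were 2 for H1299 siTAZ and 3 for H1299 siYAP. DESeq2 called 1 lower for A549 siTAZ. With library totals 1 was higher for H1299 siTAZ, 2 for H1299 siYAP, and 5 were lower in H1299 siControl than in A549. Without the filter on low counts MYC differed between siControl lines by 0.25 (adjusted p = 0.0555). Leaving out libraries gave 2 to 33 lower and 0 to 1 higher for H1299 siTAZ, 0 to 12 lower and 0 to 3 higher for H1299 siYAP, 0 to 19 lower for siTAZ against siYAP and 0 to 2 lower for the siTAZ difference between lines. MYC then lay between -0.59 and -0.35 for H1299 siYAP, -0.60 and -0.35 for siTAZ against siYAP, 0.22 and 0.30 for siControl lines, and -0.93 and -0.79 for the siTAZ difference. Of 5479 alternatives for single genes, 5105 stayed on the same side of the threshold, 276 lost a call and 98 gained one.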
